A study of Homo sapiens with 6 samples.

Results

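The carcinoembryonic antigen-related cell adhesion molecules (CEACAMs) are cell surface glycoproteins of the immunoglobulin superfamily, and 9 of their genes were followed here in AGS cells, an established human gastric carcinoma line, under celecoxib. The members were CEACAM1, CEACAM3, CEACAM4, CEACAM5, CEACAM6, CEACAM7, CEACAM8, CEACAM19 and CEACAM21, out of 18417 genes tested. Each was read from a transcript cluster, the array's set of probes for a transcript, whose platform annotation gave that symbol alone. Where a gene had several such clusters the one with the highest mean over the 6 arrays was to be used, and each member had 1. The cluster of a gene was thus selected on its mean value over all arrays and not on the difference between the groups. Cells received 20 µM celecoxib, a cyclooxygenase-2 inhibitor dissolved in DMSO, for 24 h, or were the untreated controls, and each group had 3 arrays of the HuGene-1_0-st type. The celecoxib and control cells alike were a single cancer line in culture. The labels call the arrays biological replicates but also mention pooling of samples after the RNA check, so the p-values measure the spread between these arrays, which may be technical. The labels do not say whether control wells were given the solvent.

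CEACAM proteins bind one another and other partners across cell contacts, and several serve as docking sites for bacteria on mucosal surfaces. CEACAM5, CEACAM6, CEACAM7 and CEACAM8 are held in the membrane by a glycosylphosphatidylinositol (GPI) lipid anchor, whereas CEACAM1, CEACAM3, CEACAM4, CEACAM19 and CEACAM21 span it. CEACAM5 is the carcinoembryonic antigen (CEA) measured in serum as a tumour marker, and CEACAM6 is raised in many gastrointestinal cancers. CEACAM3, CEACAM4 and CEACAM8 are known chiefly from granulocytes.

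The genes lie on chromosome 19 in the order CEACAM21, CEACAM4, CEACAM7, CEACAM5, CEACAM6, CEACAM3, CEACAM1, CEACAM8 and CEACAM19. RefSeq promoter windows of build GRCh38.p14, each 300 bases long with 250 before the gene's start and 50 after it, were matched by symbol for 8 of the 9 members, and CEACAM19 was the member not matched. The windows of CEACAM5 (chr19:41708376-41708675, plus strand), CEACAM7 (chr19:41688221-41688520, minus strand) and CEACAM6 (chr19:41755280-41755579, plus strand) are shown because they are the 3 most alike of those aligned. CEACAM21 had 2 windows, and only the first of them was aligned. The window of CEACAM1 (chr19:42528432-42528731, minus strand) is shown because CEACAM1 and CEACAM5 had the largest differences between the groups. Sequences run 5′ to 3′ along the gene's strand. Capitals mark 3 motifs searched on both strands: CACGTG, the E-box bound by USF factors, GGGCGG, the GC box bound by Sp factors (read as CCGCCC on the other strand), and a core of interferon response elements (GAAA, any 2 bases, GAAA).
CEACAM5: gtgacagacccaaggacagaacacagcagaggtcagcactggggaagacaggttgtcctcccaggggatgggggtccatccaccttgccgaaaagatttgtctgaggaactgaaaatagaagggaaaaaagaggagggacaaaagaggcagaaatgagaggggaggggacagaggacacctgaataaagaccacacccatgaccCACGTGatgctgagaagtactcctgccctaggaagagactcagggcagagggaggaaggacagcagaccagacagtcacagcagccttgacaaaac
CEACAM7: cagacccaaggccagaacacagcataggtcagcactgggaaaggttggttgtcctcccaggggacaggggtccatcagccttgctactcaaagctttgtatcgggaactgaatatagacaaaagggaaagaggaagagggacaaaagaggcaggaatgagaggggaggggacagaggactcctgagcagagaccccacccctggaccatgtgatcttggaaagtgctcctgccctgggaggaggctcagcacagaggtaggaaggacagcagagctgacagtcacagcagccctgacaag
CEACAM6: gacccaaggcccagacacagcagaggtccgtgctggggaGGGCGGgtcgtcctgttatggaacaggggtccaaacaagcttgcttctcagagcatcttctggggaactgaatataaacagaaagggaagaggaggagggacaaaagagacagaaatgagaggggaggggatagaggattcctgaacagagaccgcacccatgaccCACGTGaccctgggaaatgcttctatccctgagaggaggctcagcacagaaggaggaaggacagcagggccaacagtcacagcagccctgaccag
CEACAM1: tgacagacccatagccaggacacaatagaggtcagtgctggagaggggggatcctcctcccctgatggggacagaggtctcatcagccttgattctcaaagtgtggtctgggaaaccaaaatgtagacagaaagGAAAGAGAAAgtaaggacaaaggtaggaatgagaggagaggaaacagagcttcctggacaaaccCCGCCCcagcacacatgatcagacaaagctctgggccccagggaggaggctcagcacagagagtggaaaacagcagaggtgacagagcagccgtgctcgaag

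The E-box stood 46 bases before the start of CEACAM5 and 45 before that of CEACAM6, and in no other member's window. It was in 7.26% of all 35116 promoter windows in the RefSeq table. Over a global alignment the window of CEACAM5 was 81.4% identical to that of CEACAM7, which has no E-box, and 75.9% identical to that of CEACAM6. The GC box occurred in the windows of CEACAM1, CEACAM6, CEACAM8 and CEACAM21, against 45% of all windows. The interferon element occurred in that of CEACAM1 alone, 116 bases before the start, against 3.57% of all windows. TATAAA was found in the CEACAM6 window only (11.5% of all windows) and TTTATG, a short CDX-type site, in 1 of the CEACAM21 windows only (10.6% of all windows). A match shows letters and not a bound site.

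All values below are log2 expression values made by the authors with RMA, which corrects background, equalises the distributions of the arrays and summarises probes. A difference is celecoxib minus control on the log2 scale with its standard error from a limma fit across all genes. The adjusted p is Benjamini-Hochberg over the 18417 genes, with 0.05 as the threshold. Clusters differ in how brightly their probes shine, so a brighter value in one gene than in another does not show a higher transcript level. The CEACAM genes are close paralogs, and whether their clusters share signal was not tested.

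None of the 9 CEACAM genes passed the threshold, against 0.141% of all genes (26 of 18417). CEACAM5 came closest, with an adjusted p of 0.0561, and CEACAM1 was next with 0.133. At an unadjusted limma p under 0.05 there were 4 members, against 11.3% of all genes. They were CEACAM1, CEACAM5 and CEACAM8 with higher values under celecoxib (6.87% of all genes) and CEACAM21 with lower values (4.44% of all genes). Differences were positive in 5 members, CEACAM1 and the 4 GPI-anchored genes CEACAM5, CEACAM6, CEACAM7 and CEACAM8. They were negative in CEACAM3, CEACAM4, CEACAM19 and CEACAM21. Over all 18417 genes, 8823 differences were positive and 9594 negative. The median over the members was 0.12, beside -0.01 over all genes. CEACAM16 and CEACAM20, measured but not among the 9 members, both had negative differences (-0.15 and -0.10). Whether the members differ from one another in their response was not tested.

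CEACAM5, the carcinoembryonic antigen gene, had values of 8.44, 8.36 and 8.45 in celecoxib cells, against 7.83, 7.85 and 8.01 in control cells. Every celecoxib array lay above every control array, and the gap between the groups was wider than the spread within either. The means were 8.42 ± 0.05 with celecoxib and 7.90 ± 0.10 in controls (SD, n = 3 each). The difference was 0.52 ± 0.08 (SE), with a 95% interval of 0.34 to 0.70, a 1.43-fold higher level (limma adjusted p = 0.0561). It ranked 40th of all genes by p-value. Several processing settings put it past the threshold: its adjusted p was 0.0239 when only genes brighter than the median cluster were tested, 0.0294 when the dimmest 20% of genes were dropped, 0.0283 when the variance prior followed intensity, 0.0301 when that prior was robust besides, and 0.00742 with array weights. Other settings on all arrays left it above the threshold. The limma adjusted p was 0.0551 with the mean of a gene's clusters and 0.0552 with array medians set equal. It was 0.0829 with quantile normalization on top, 0.132 with the replicate number as a block and 0.293 with all clusters tested together. With any single array left out the adjusted p was between 0.103 and 0.380, while the difference stayed between 0.49 and 0.58.

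CEACAM6, which is GPI-anchored like CEACAM5 and made by epithelial cells and granulocytes, had values of 9.93, 9.59 and 9.77 in celecoxib cells, against 9.56, 9.48 and 9.77 in control cells. The groups overlapped, since control replicate 3 lay above celecoxib replicate 2 and marginally above celecoxib replicate 3. The difference was 0.16 ± 0.11 (limma adjusted p = 0.589), with a 95% interval of -0.09 to 0.41. The difference was 0.08 without celecoxib replicate 1 and 0.10 without control replicate 2, and it was 0.24 without celecoxib replicate 2 or control replicate 3.

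CEACAM7, a GPI-anchored protein of the apical surface of colonic epithelium, had values of 5.10, 5.08 and 5.27 in celecoxib cells, against 5.02, 4.96 and 5.11 in control cells. Control replicate 3 lay above 2 of the celecoxib arrays here as well. The difference was 0.12 ± 0.08 (limma adjusted p = 0.588), and it was 0.06 without celecoxib replicate 3. CEACAM7 was among the dimmest 20% of genes.

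CEACAM8 encodes CD66b, the GPI-anchored granulocyte antigen. Its values were 6.29, 6.34 and 6.49 in celecoxib cells, against 6.17, 6.27 and 6.07 in control cells. The groups did not overlap, but the lowest celecoxib array and the highest control array were close. The difference was 0.20 ± 0.09 (limma adjusted p = 0.428), with a 95% interval of 0.01 to 0.40.

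CEACAM1, the member with inhibitory tyrosine motifs in its long cytoplasmic tail, had values of 10.61, 10.62 and 10.66 in celecoxib cells, against 10.26, 10.29 and 10.34 in control cells. All celecoxib arrays lay above all control arrays, and within each group the values were close together. The means were 10.63 ± 0.03 with celecoxib and 10.29 ± 0.04 in controls (SD, n = 3 each). The difference was 0.34 ± 0.07, with a 95% interval of 0.19 to 0.49, a 1.26-fold higher level (limma adjusted p = 0.133). Array weights alone, among the settings tried, took it past the threshold (adjusted p = 0.0206), and without single arrays it was between 0.224 and 0.560.

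CEACAM3, a granulocyte receptor that takes up bacteria binding CEACAM proteins, had values of 7.11, 7.11 and 7.37 in celecoxib cells, against 7.40, 7.19 and 7.32 in control cells. The groups overlapped, with celecoxib replicate 3 among the controls, and the difference was -0.11 ± 0.10 (limma adjusted p = 0.686). It was -0.19 without celecoxib replicate 3 and -0.16 without control replicate 2, and -0.06 without celecoxib replicate 1, celecoxib replicate 2 or control replicate 1.

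CEACAM4, a membrane-spanning relative also found on granulocytes, had values of 6.21, 6.14 and 6.18 in celecoxib cells, against 6.25, 6.26 and 6.38 in control cells. All celecoxib arrays lay below all control arrays, by a small margin. The difference was -0.12 ± 0.07 (limma adjusted p = 0.531), and it was -0.08 without control replicate 3.

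CEACAM19 had values of 6.70, 6.79 and 6.74 in celecoxib cells, against 6.82, 6.86 and 6.75 in control cells. The groups overlapped, and the difference was -0.07 ± 0.07 (limma adjusted p = 0.727), or -0.04 without control replicate 2. Its 95% interval was -0.22 to 0.09.

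CEACAM21 had values of 6.34, 6.14 and 6.34 in celecoxib cells, against 6.55, 6.38 and 6.59 in control cells. All celecoxib arrays lay below all control arrays. The difference was -0.23 ± 0.09 (limma adjusted p = 0.407), with a 95% interval of -0.44 to -0.02.

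**Figure D1:**
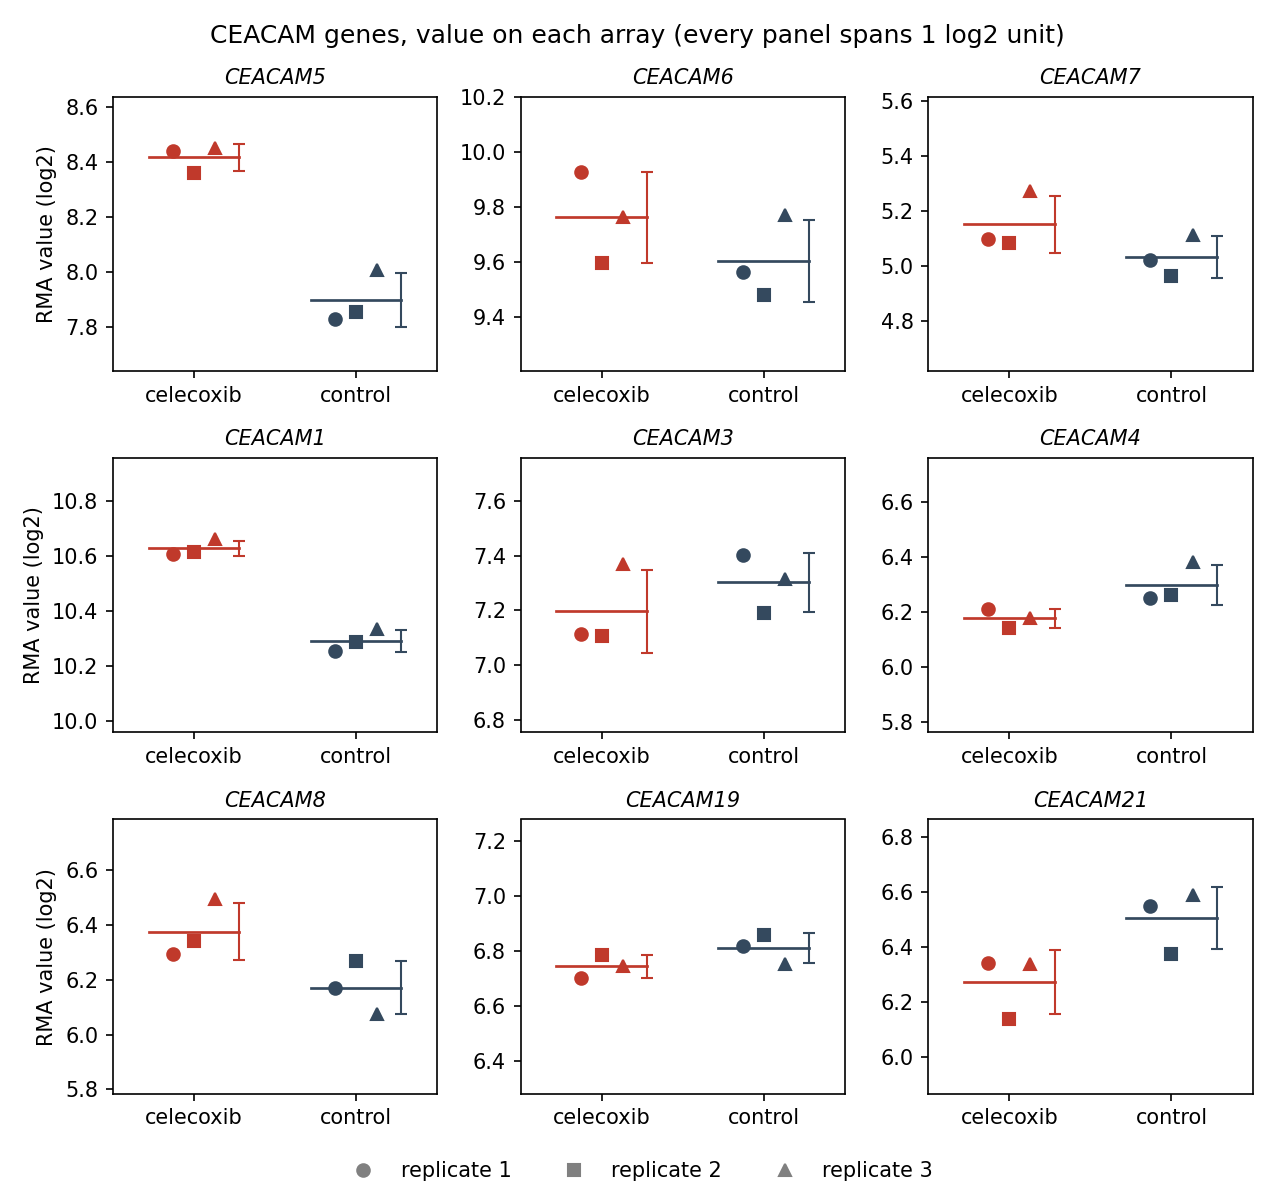
RMA values (log2) of the 9 CEACAM genes on each array, with celecoxib left of control. Points are arrays, shaped by replicate number, horizontal lines are group means and bars are SDs. CEACAM5 and CEACAM1 show gaps between the groups that are wide beside the spread within them.

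**Figure D2:**
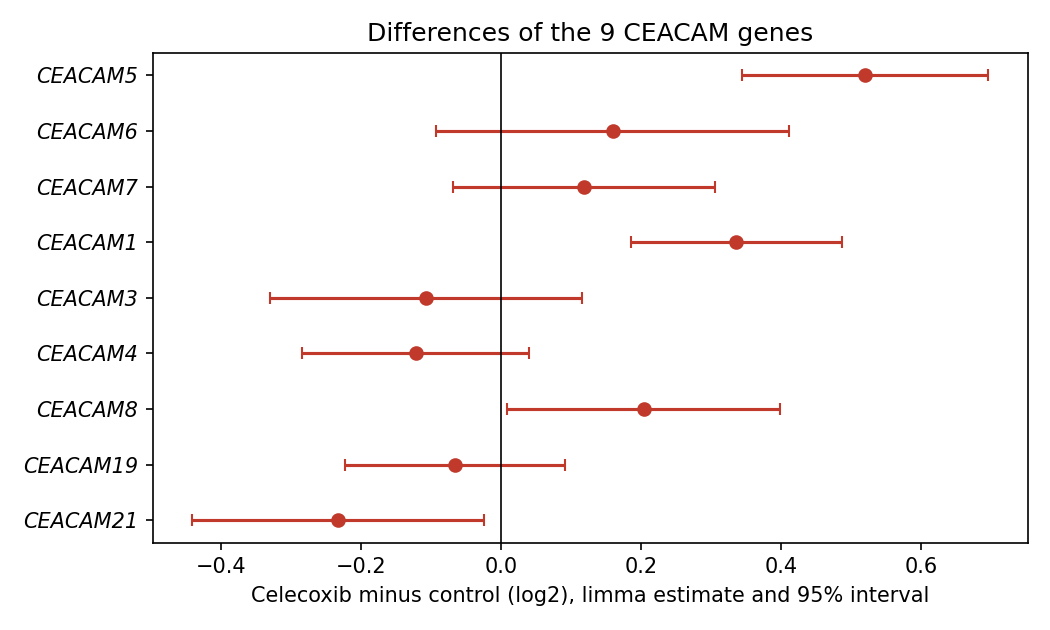
Difference between celecoxib and control (log2, horizontal axis) for each CEACAM gene, with its 95% interval from limma. The intervals of CEACAM5, CEACAM1 and CEACAM8 lie above 0, that of CEACAM21 lies below 0 and the other 5 include 0. These intervals are for single genes and are not adjusted for the number of genes.

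The celecoxib values lay wholly above the control values in 3 members, CEACAM1, CEACAM5 and CEACAM8, as in 11.1% of all genes. They lay wholly below in 2 members, CEACAM4 and CEACAM21, as in 7.95% of all genes. The members were chosen with results of these data known, so these counts describe them and do not test them. Celecoxib replicate 1 stood apart from the other arrays on the first principal component of all clusters, at -39.8 where the others lay at -16.8 or above. Without it the difference of CEACAM5 was 0.51 (adjusted p = 0.139) and that of CEACAM1 was 0.35 (adjusted p = 0.224).

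**Figure D3:**
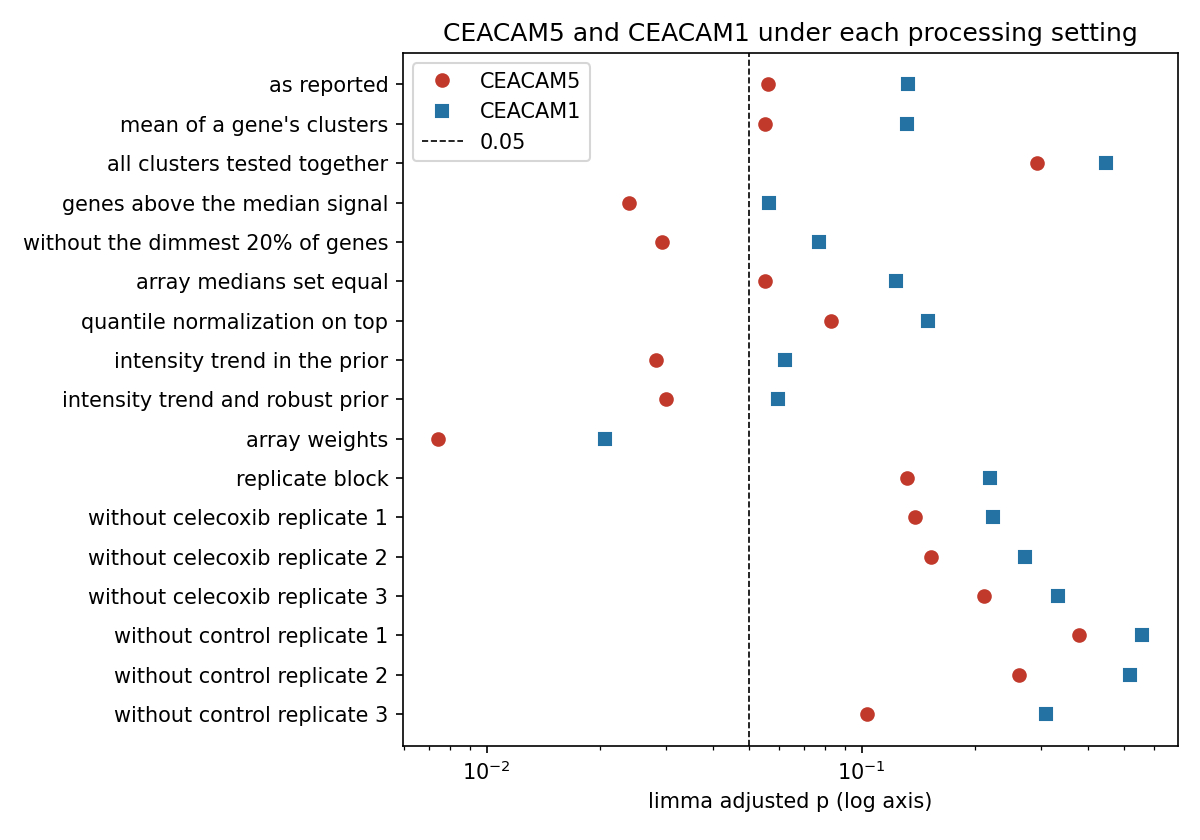
limma adjusted p (log axis) of CEACAM5 and CEACAM1 under each processing setting, with a dashed line at 0.05. CEACAM5 lies left of the line in 5 of 16 alternatives and CEACAM1 in 1 of 16. Both lie right of it whenever an array is left out.

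Markers of the cell type named in the labels and of others were read as signal only, since levels are not comparable between clusters. All 8 measured epithelial markers were brighter than the median of all clusters (6.79), among them EPCAM, KRT8 and KRT18, where 59% of all genes were. The same held for 3 of 14 granulocyte and monocyte markers, 1 of 9 lymphocyte markers and 1 of 10 stromal and endothelial markers. No gene of these 4 marker lists passed the limma threshold. Of their 41 measured genes, 3 had an unadjusted limma p under 0.05, against 11.3% of all genes. Among the 8 epithelial markers 3 differences were positive and 5 negative, with a median of -0.02. KRT18 differed by -0.21 ± 0.07, KRT8 by -0.16 ± 0.08 and EPCAM by 0.004 ± 0.07. The table carries no detection calls, so it cannot be said which of the dim members were above background. Of the members, the clusters of CEACAM1, CEACAM3, CEACAM5 and CEACAM6 were brighter than that median. In the granulocyte and monocyte list 4 differences were positive and 10 negative, with 0 of 14 past the threshold. Its smallest p-values were those of FPR1 (-0.31 ± 0.11) and CSF3R (-0.20 ± 0.09). The array medians of this list were 5.79 to 6.00 in celecoxib cells and 6.06 to 6.17 in control cells. Whether the values of CEACAM3, CEACAM4 and CEACAM8 are related to these medians was not tested.

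Other genes of the carcinoembryonic antigen family were measured beside the members. They include the pregnancy-specific glycoproteins (PSGs), secreted relatives made by the placenta, and the further CEACAM genes CEACAM16 and CEACAM20. Of the 9 measured, out of 13 listed, 0 passed the threshold and all 9 had negative differences, with a median of -0.12. PSG4 had values of 10.20, 10.18 and 10.04 in celecoxib cells, against 10.37, 10.28 and 10.48 in control cells, a difference of -0.24 ± 0.08 (limma adjusted p = 0.363). PSG2 differed by -0.27 ± 0.10 (limma adjusted p = 0.394). CEACAM16 differed by -0.15 ± 0.08 (limma adjusted p = 0.489) and CEACAM20 by -0.10 ± 0.09 (limma adjusted p = 0.684). The PSG genes are near-identical copies, so their clusters may share signal and are not independent of one another.

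GPI anchor genes were taken as a list because CEACAM5, CEACAM6, CEACAM7 and CEACAM8 need this anchor to reach the surface. Of 25 measured genes that build, attach, remodel or cleave it, 0 passed the threshold, 21 had positive differences and the median was 0.10. Positive differences were found in 8823 of all 18417 genes. In 9 of the 25 all celecoxib arrays lay above all control arrays, against 11.1% of all genes, and in 0 did they lie below, against 7.95%. PGAP1, which removes a fatty acid from newly attached anchors, had values of 8.92, 8.90 and 8.98 in celecoxib cells, against 8.57, 8.59 and 8.45 in control cells. It differed by 0.40 ± 0.07 (limma adjusted p = 0.103). PIGM, a mannosyltransferase of anchor synthesis, differed by 0.32 ± 0.07 (limma adjusted p = 0.209), and its groups did not overlap.

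Of 14 measured signalling partners of CEACAM tails, which include phosphatases and Src-family kinases, 0 passed, with 6 positive and 8 negative differences and a median of -0.03. PTPN6 and PTPN11, the phosphatases that bind the CEACAM1 tail, differed by 0.07 ± 0.07 and -0.11 ± 0.10. The smallest p-values of the list were those of CAV1, the caveolar coat protein (-0.28 ± 0.11, limma adjusted p = 0.386), and of the adaptor NCK1 (0.27 ± 0.12, limma adjusted p = 0.447).

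Of 15 measured surface partners 0 passed, with 7 positive and 8 negative differences and a median of -0.01. ITGA5, the alpha chain of a fibronectin receptor, differed by -0.31 ± 0.11 (limma adjusted p = 0.357), and the receptor TGFBR1 by -0.15 ± 0.07 (limma adjusted p = 0.461).

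Of 16 measured regulators listed as acting at CEACAM promoters 0 passed, with 2 positive and 14 negative differences and a median of -0.08. IRF1, an interferon-induced factor, had values of 7.87, 7.89 and 7.62 in celecoxib cells, against 8.04, 8.09 and 8.08 in control cells, a difference of -0.28 ± 0.09 (limma adjusted p = 0.336). IRF2, of the same family, went the other way, with a difference of 0.23 ± 0.09 (limma adjusted p = 0.422). SMAD3, which carries transforming growth factor beta signals, differed by -0.31 ± 0.12 (limma adjusted p = 0.411). The E-box factor USF1 differed by -0.05 ± 0.07 (limma adjusted p = 0.799). USF2 differed by -0.39 ± 0.22 (limma adjusted p = 0.512), with celecoxib replicate 1 at 8.91 below every other array.

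**Figure D4:**
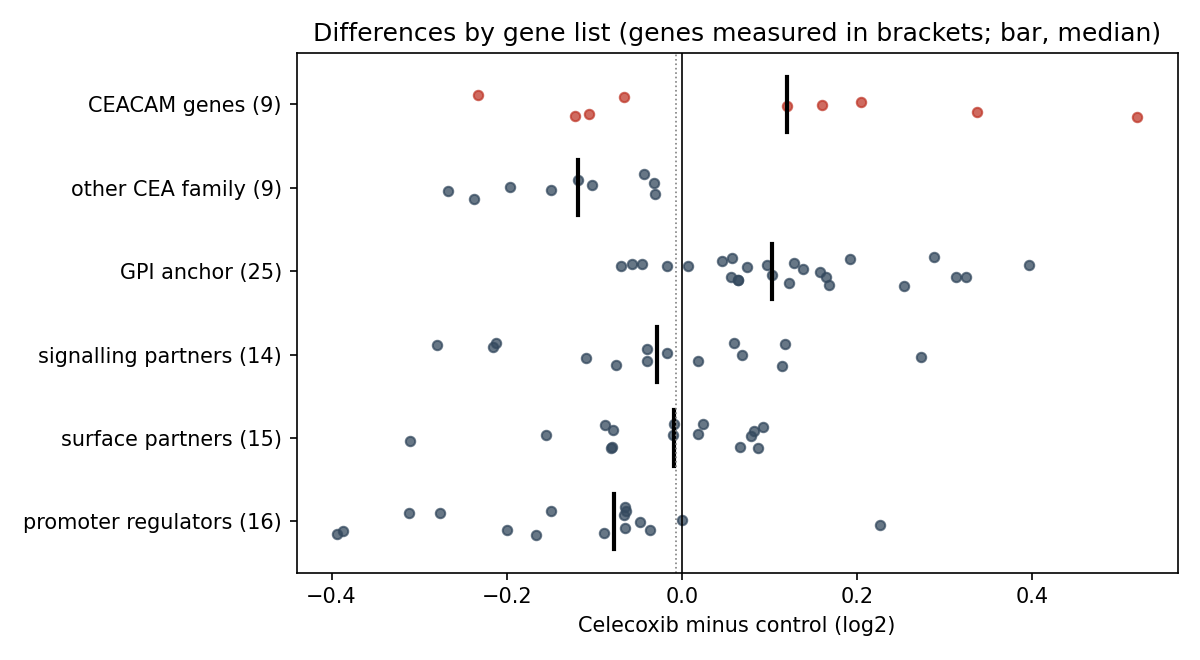
Difference between celecoxib and control (log2, horizontal axis) for each measured gene of the CEACAM set and of 5 lists around it. Points are genes, black bars are list medians and the dotted line is the median of all genes. The medians are 0.12 for the CEACAM genes, -0.12 for the other family genes and 0.10 for the GPI anchor genes. CEACAM16 and CEACAM20 are among the other family genes.

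The array patterns most like those of CEACAM1, CEACAM6 and CEACAM5 were looked up, the 3 members whose clusters had the brightest mean signal (which is no order of transcript level), among protein-coding genes of at least 0.8 times the member's SD over the 6 arrays. Likeness was the root mean square difference over the 6 arrays after centring each gene on its own mean. For CEACAM5 the nearest of 1147 genes were TXNIP (0.033 log2 units; its own difference was 0.48 ± 0.07), TTN (0.048; 0.56 ± 0.07) and CILK1 (0.050; 0.46 ± 0.07). Of these, TTN passed the threshold over all genes (limma adjusted p = 0.0369). For CEACAM1 the nearest of 5192 were VPS13C (0.026), COG6 (0.028) and CFTR (0.030), and for CEACAM6 the nearest of 6708 were H2BC5 (0.019), MAG (0.023) and PRSS3 (0.026). With 6 arrays and this many candidate genes, likeness is a description only. Among the members themselves the smallest distance was that of CEACAM4 with CEACAM19 (0.089). CEACAM1 was closest to CEACAM5 (0.101), and the most distant pair was CEACAM5 with CEACAM21 (0.383). No SD condition was applied among the members. A small distance between members that vary little, such as CEACAM4 and CEACAM19, thus does not show a shared pattern.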

How the data were processed

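RNA of 3 celecoxib-treated and 3 control AGS cultures was measured on 1-colour arrays, grouped by the labels. The deposited table holds log2 values for 33297 transcript clusters. These log2 values were made by the authors with RMA in Affymetrix Expression Console 1.1, per the submitters' processing notes. No source used here gives probe-level settings, scan dates or batches, and the number of arrays limits the precision. Clusters were named from the platform annotation: 19460 had 1 symbol, 1754 several and 12083 were unnamed here. The brightest single-symbol cluster stood for each of 18417 genes, and all 9 CEACAM symbols matched the RefSeq gene table. Groups were compared in R 4.3.3 with limma 3.58.1 (lmFit, then eBayes), two-sided, with no filter, covariate or block. The fit was tested on simulated data whose spread was independent between arrays. In 20 simulations it called 75.65% of genes changed by 0.5 log2 units and 99.85% of those changed by 1. Of the genes called, 6.29% were unchanged ones. The CEACAM members and the gene lists were chosen with earlier results of these data known. Named genes besides the members are those past the threshold and otherwise the 2 with the smallest p of each list, and the 3 closest patterns. From the lymphocyte list and the stromal and endothelial list no gene was named. PTPN6, PTPN11, IRF2, USF1, USF2, EPCAM, CEACAM16 and CEACAM20 were named outside that rule, after their values were seen. Promoters were aligned with Biopython 1.88 (match 1, mismatch -1, gap opening -2, extension -0.5). The alternatives tried were other cluster choices, signal filters, normalizations, variance priors, array weights, a replicate block and leaving out each array.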

Additional observations from a re-analysis of the deposited data

How the results depend on the processing

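Every CEACAM gene kept the sign of its difference under all alternatives that gave it a value. The number of members past the threshold was 0 as reported and 1 (CEACAM5) when only genes brighter than the median cluster were tested, when the dimmest 20% were dropped, and when the variance prior followed intensity, robust or not. It was 2 (CEACAM5 and CEACAM1) with array weights and 0 without any single array. The median over the members was 0.248 among the genes brighter than the median cluster, where 4 members were left, and 0.0467 without the dimmest 20%, where 8 were left, so the filters changed the members it covers. Without single arrays it was between 0.0589 (without celecoxib replicate 3) and 0.155 (without control replicate 3), and it was 0.0771 without celecoxib replicate 1. The count over all genes was 26 as reported, 76 among the brighter genes, 59 when the dimmest 20% were dropped, 44 with quantile normalization on top, 69 with an intensity trend, with or without a robust prior, and 177 with array weights. With all 33297 clusters tested together limma called 0, where 2551 clusters had an unadjusted p under 0.05. Without single arrays it called 0 to 5, and 1293 to 2353 genes had an unadjusted p under 0.05. With the replicate number as a block limma called 0 genes and 0 members, where 2448 genes had an unadjusted p under 0.05. Same-numbered arrays of the groups deviated together with correlations of -0.02, 0.49 and 0.01 across genes. Differently numbered arrays ranged from -0.49 (celecoxib replicate 2 with control replicate 3) to 0.41 (celecoxib replicate 1 with control replicate 3). Some arrays of different groups thus deviated together or oppositely regardless of number, and the numbers were not taken to pair the arrays. The cause of these shifts was not tested, apart from the members that the filters leave out. Without detection calls, signal over background cannot be set for the dim members.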

Other observations

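The stretch of chromosome 19 between CEACAM21 and CEACAM19 holds 72 further protein-coding genes in the RefSeq table, of which 63 were measured. None of the 63 passed the limma threshold over all genes, where 9 had an unadjusted p under 0.05, against 11.3% of all genes. Of them, 27 had positive and 36 negative differences, with a median of -0.03. The celecoxib values lay wholly above the control values in 6 of them (11.1% of all genes) and wholly below in 9 (7.95% of all genes). The smallest p-value was that of CXCL17, a mucosal chemokine, at 8.16 ± 0.23 in celecoxib cells and 7.76 ± 0.06 in control cells (SD, n = 3 each), a difference of 0.40 ± 0.11 (limma adjusted p = 0.302). PINLYP was next, at 5.63 ± 0.04 in celecoxib cells and 5.85 ± 0.06 in control cells, a difference of -0.22 ± 0.07 (limma adjusted p = 0.329). The PSG genes are among these 63.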
